A study of Mus musculus with 14 samples.

Results

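The proteasome is the multi-subunit protease that degrades proteins tagged with ubiquitin. Its core particle is a barrel of stacked alpha and beta rings, in which Psmb5, Psmb6 and Psmb7 encode the catalytic subunits, and its regulatory particle of ATPases and non-ATPase subunits binds, unfolds and feeds in the substrates. Other activators can cap the barrel instead, dedicated chaperones assemble both particles, and interferon induces Psmb8, Psmb9 and Psmb10, which replace the catalytic subunits, and the activator pair Psme1 and Psme2. In the intestine this interferon-inducible form serves peptide generation for antigen presentation, in epithelial as well as immune cells. Proteasome genes were taken as the rows of the deposited table whose symbol begins with Psma, Psmb, Psmc, Psmd, Psme, Psmf or Psmg and a digit, leaving out Psmb8, Psmb9 and Psmb10. The rule found 48 of 21898 genes.

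RNA sequencing measured them in colon tissue of mice labelled wild type, 7 samples after gavage with PBS, the saline vehicle, and 7 after gavage with the gut bacterium Bacteroides thetaiotaomicron. The sources used here do not give strain, sex, age, dose or time of sampling. All samples carry the same label for treatment, drug stimulation, and the same batch label, so gavage groups came from the sample titles, and a recalculation by batch was not possible. The series title concerns hypertension and saliva, and the labels do not say which mice, if any, were hypertensive. Samples are called by the numbers of their library names, which were not treated as pairs. Since the labels do not say that each sample is a separate animal, each p-value here reflects only how these samples vary.

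The 48 genes fell into 10 classes by textbook role. They were 7 alpha ring genes (Psma1 to Psma7), 7 beta ring genes (Psmb1 to Psmb7), 2 core genes known mainly from testis and thymus (Psma8 and Psmb11), 6 ATPases (Psmc1 to Psmc6) and 11 non-ATPase subunits of the regulatory particle. The remainder were 3 chaperones of the regulatory particle's base (Psmd5, Psmd9 and Psmd10), 5 activator genes (Psme1, Psme2, Psme2b, Psme3 and Psme4), the inhibitor Psmf1, 4 chaperones of core assembly (Psmg1 to Psmg4), and Psmc3ip and Psme3ip1. The last pair are named after a proteasome gene they interact with and are no subunits. All except Psma8 and Psmb11 passed the filter on low counts, which left 46 genes to test among 14070.

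Total counts ranged from 13150140 to 16781708 per sample. The first principal component of all tested genes took 45.9% of the variance and set PBS samples 1, 3 and 5 and B. thetaiotaomicron sample 3 apart from the other libraries. These libraries were among those with high Hoxb13 and Hoxd13, genes of the distal hindgut, whose summed level ranged from 0.195 to 686 CPM (counts scaled to the TMM-adjusted library total) in PBS samples and from 4.38 to 404 CPM in B. thetaiotaomicron samples. Epithelial, smooth muscle and fibroblast markers were detected in every sample. In bulk tissue, fewer cells of a type and less RNA per cell cannot be told apart. Results are therefore also given without those 4 libraries.

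Promoters of the catalytic genes Psmb5 and Psmb6 and of the activator genes Psme1 and Psme2 are shown because the results below turn on how these genes differed from their neighbours in function. Psme1 lies on chromosome 14 at chr14:55578123-55581529 on the plus strand and Psme2 at chr14:55587441-55591113 on the minus strand, 5912 bases apart (GRCm38, GENCODE M21). Psmb5 lies on the same chromosome at chr14:54614119-54618022 on the minus strand, and Psmb6 at chr11:70525367-70527858 on the plus strand. Each sequence is the 300 bases from 250 before to 50 after a RefSeq transcription start (GRCm38.p6), written 5′ to 3′ on the gene's own strand. The windows are chr14:54617946-54618245 for Psmb5, chr11:70525107-70525406 for Psmb6, chr14:55578244-55578543 for Psme1 and chr14:55590972-55591271 for Psme2, which has a second start with a window of its own. Capitals mark matches to TGACNNNGC, the core of the antioxidant response element, in the catalytic genes. In the activator genes they mark matches to the interferon-stimulated response element (GAAA, any 2 bases, then GAAA) or to TTCNNNGAA, the gamma-activated site. Both strands were searched.

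Psmb5: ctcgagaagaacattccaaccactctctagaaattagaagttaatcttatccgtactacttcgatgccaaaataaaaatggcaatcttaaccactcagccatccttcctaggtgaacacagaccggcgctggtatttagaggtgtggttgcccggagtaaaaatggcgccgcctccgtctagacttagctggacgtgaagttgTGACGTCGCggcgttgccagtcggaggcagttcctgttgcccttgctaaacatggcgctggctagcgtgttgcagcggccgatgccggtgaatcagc

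Psmb6: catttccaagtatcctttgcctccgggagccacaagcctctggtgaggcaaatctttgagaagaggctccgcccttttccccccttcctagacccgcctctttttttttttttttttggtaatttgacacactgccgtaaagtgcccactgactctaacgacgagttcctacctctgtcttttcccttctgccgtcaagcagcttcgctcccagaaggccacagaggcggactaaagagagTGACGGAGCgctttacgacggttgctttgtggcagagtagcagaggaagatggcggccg

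Psme1: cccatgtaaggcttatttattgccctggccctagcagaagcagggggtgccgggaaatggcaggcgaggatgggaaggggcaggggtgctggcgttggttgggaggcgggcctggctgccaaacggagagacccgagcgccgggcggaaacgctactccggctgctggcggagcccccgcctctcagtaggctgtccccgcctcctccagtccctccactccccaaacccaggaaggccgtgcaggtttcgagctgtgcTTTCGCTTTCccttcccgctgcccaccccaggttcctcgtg

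Psme2: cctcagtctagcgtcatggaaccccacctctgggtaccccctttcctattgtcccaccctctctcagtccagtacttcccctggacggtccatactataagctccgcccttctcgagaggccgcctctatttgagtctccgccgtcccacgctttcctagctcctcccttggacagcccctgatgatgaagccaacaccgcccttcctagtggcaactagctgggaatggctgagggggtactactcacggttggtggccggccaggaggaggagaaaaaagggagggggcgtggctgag

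Psmb5 and Psmb6 each held 1 match to the antioxidant response element. Psme1 held 1 match to the interferon-stimulated response element, on the opposite strand at bases 260 to 269 of the window, after the transcription start. This window begins at 55578244, inside the gene as GENCODE M21 places it (start 55578123), so sequence before that gene start was not searched. Neither Psme2 window held a match to either interferon motif. RefSeq windows were found for 40 of the 48 genes. The interferon-stimulated response element was present at 5 of these 40 (12.5%; Psmb3, Psmd4, Psmd9, Psme1 and Psmg4) and in 3.44% of all 32851 windows. The gamma-activated site was present at Psmd2 and Psmg1, 5% of the 40, against 8.30% of all windows. The antioxidant response element was present at 6 of the 40 (15%; Psmb5, Psmb6, Psmc6, Psmd12, Psmd9 and Psme4), against 12.4% of windows. CCGGAAGT, a site of ETS factors, was present at 9 of the 40 (22.5%; Psma6, Psmc1, Psmc2, Psmd12, Psmd13, Psmd6, Psme3, Psme4 and Psmg3), against 3.89% of windows, and CCAAT was present at 15 (37.5%), against 37.4%. Genes with 2 windows count once if either holds the motif, and all 5 motifs were read on both strands. Counted per gene rather than per window, the shares over 27025 genes were 3.99%, 9.55%, 13.99%, 4.31% and 41.1% in the order given. A match describes letters in a window and was not tested for binding.

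Levels per gene length were above 12 FPKM for all 31 standard subunits, and most assembly chaperones and the inhibitor lay lower. Across the 31 standard subunits of the core and regulatory particle, the deposited FPKM (counts scaled for gene length and depth), averaged over all samples, spanned 6.76-fold with a median of 31.7. Alpha ring genes ranged from 19.2 FPKM for Psma3 to 83.9 FPKM for Psma6, and beta ring genes from 16.7 FPKM for Psmb7 to 84.1 FPKM for Psmb4. ATPases ranged from 16.1 FPKM for Psmc2 to 63.0 FPKM for Psmc5, and non-ATPase subunits from 12.4 FPKM for Psmd11 to 53.9 FPKM for Psmd2. The 14 core genes had a median level of 41.1 FPKM and the 17 regulatory particle genes one of 30.5 FPKM. Among the catalytic genes, the PBS level was 25.6 ± 2.49 FPKM for Psmb5, 41.2 ± 1.96 FPKM for Psmb6 and 15.5 ± 1.40 FPKM for Psmb7 (SD, n = 7), so the 3 levels lay farther apart than their SDs.

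Activator genes lay between 21.6 FPKM for Psme4 and 60.4 FPKM for Psme2, in the range of the subunits. Psmf1, the inhibitor, was at 5.09 FPKM. Chaperones of the base ranged from 3.15 FPKM for Psmd9 to 17.04 FPKM for Psmd10, and chaperones of core assembly from 0.590 FPKM for Psmg3 to 14.2 FPKM for Psmg4. Psma8, the alpha subunit of male germ cells, had 0 to 7 counts per sample. Psmb11, the beta subunit of thymic cortical epithelium, had 0 counts in 13 samples and 3 counts in PBS sample 7. The lowest-level genes were thus those whose known expression lies outside the colon, together with Psmg3.

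**Figure D1:**
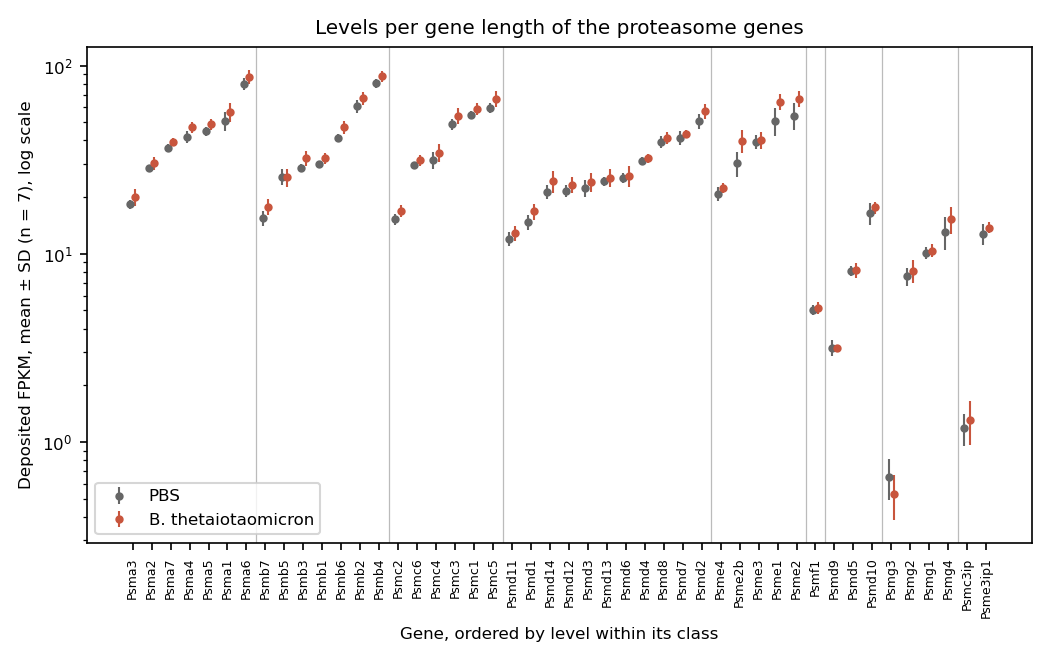
Deposited FPKM on a log axis for the 46 tested genes, ordered by level within each class, with the classes separated by grey lines in the order alpha ring, beta ring, ATPases, non-ATPases, activators, inhibitor, base chaperones, core chaperones and genes named after a partner. Points are means and bars SDs over 7 samples a group (grey, PBS; red, B. thetaiotaomicron), and the standard subunits sit between 12.4 and 84.1 FPKM when averaged over all samples, with Psmg3 lowest at 0.590.

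Variation between samples of a group was small for the standard subunits, though genes of like level were not compared. The coefficient of variation of CPM within PBS samples had a median of 6.53% over the 31 standard subunits and of 14.5% over all 14070 genes tested. Within B. thetaiotaomicron samples the medians were 8.82% and 11.97%. Psma2 varied least in PBS samples, by 3.28%, and Psmg3 most, by 24.1%.

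After B. thetaiotaomicron gavage, most proteasome genes were slightly higher than after PBS gavage, and no single gene passed the test across all genes. The log2 fold change, B. thetaiotaomicron over PBS, was above 0 for 43 of the 46 genes tested (93.5%), against 46.2% of all genes tested. Its median was 0.098 over the 46 genes and -0.013 over all genes tested, which corresponds to a difference of under 10% in level. None of the 46 passed edgeR's quasi-likelihood test at an adjusted p of 0.05, which 0.249% of all genes passed in either direction (0.156% higher and 0.0924% lower), and adjusted p in edgeR ranged from 0.124 to 0.967. At an unadjusted p of 0.05, edgeR placed 15 of the 46 higher (32.6%) and none lower, where 7.98% of all genes tested were higher and 7.26% lower. All 46 genes were measured in the same samples, so neither the 43 positive genes nor these 15 are independent observations. Shares over genes of like level were not compared. DESeq2 placed 2 of the 46, Psmb6 and Psme2b, past an adjusted p of 0.05 in the higher direction, which 1.96% of all genes passed. No gene of the 46 had groups that did not overlap, which 0.206% of all genes had in the higher and 0.334% in the lower direction.

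Counts at the unadjusted threshold rested in part on single libraries. Without PBS sample 3 the number was 9, without B. thetaiotaomicron sample 2 it was 8, and without B. thetaiotaomicron sample 4 it was 9. Without the 4 libraries set apart by the first component it was 12, and the median log2 fold change of the 46 genes was then 0.13. In data simulated at the spread and depth of these libraries, edgeR called 2% of genes changed 1.2-fold and 62% of genes changed 1.5-fold. The changed genes were drawn at random from all tested genes, whose median variation within each group exceeded that of the standard subunits. These shares thus do not say how often such changes would be called in the 46 genes, whose folds lay between 0.809 and 1.31.

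**Figure D2:**
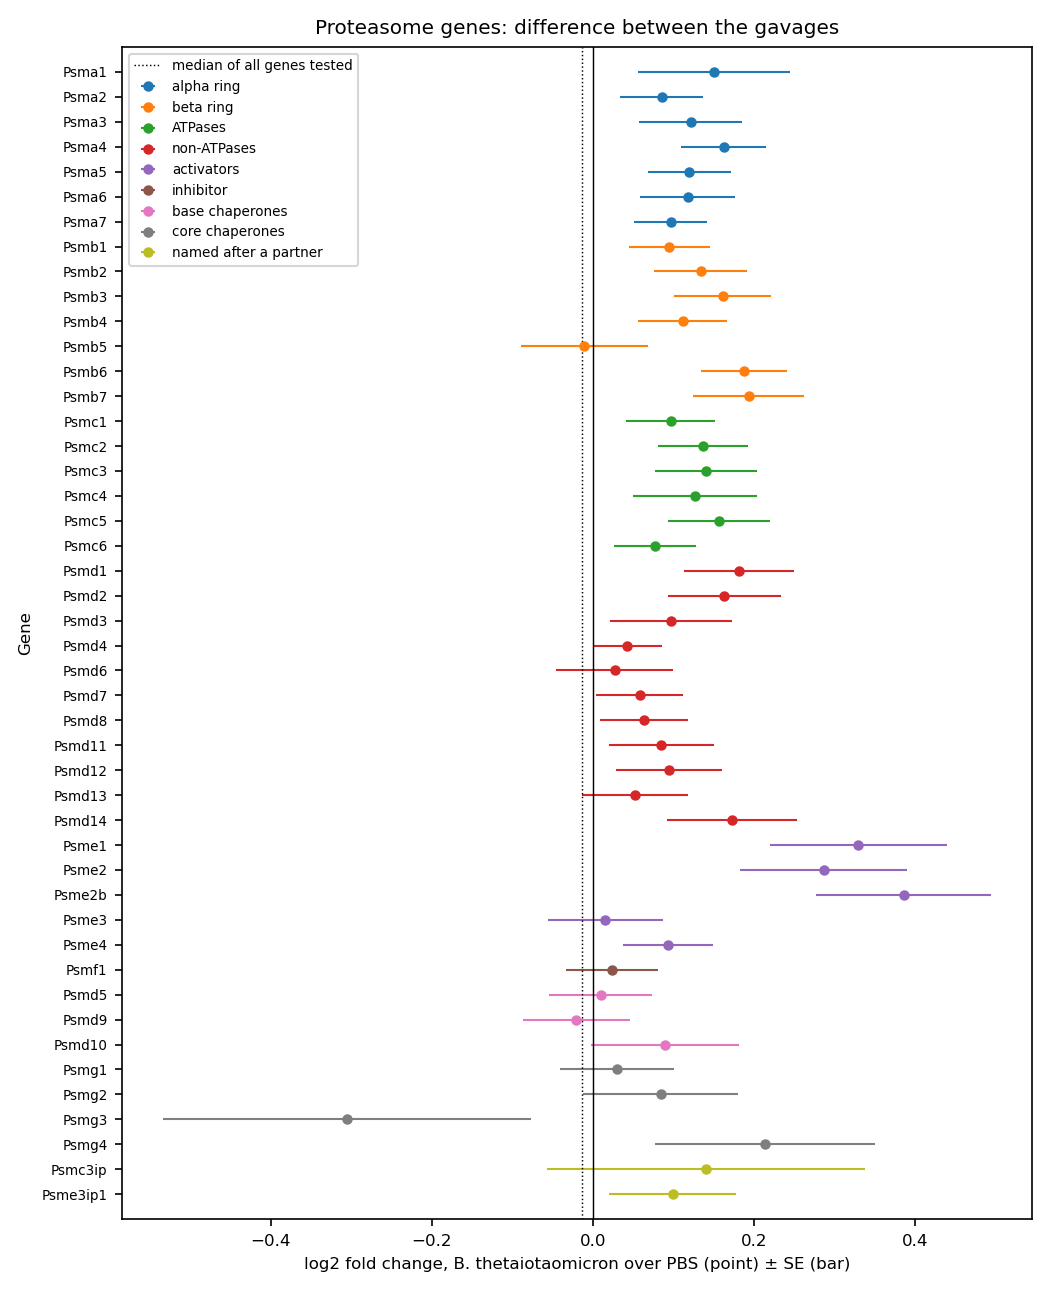
Log2 fold change of each tested proteasome gene, B. thetaiotaomicron over PBS (points, edgeR) with its SE (bars), coloured by class. The solid line marks 0 and the dotted line the median of all genes tested, -0.013; 43 of 46 points lie above 0 and the 3 below are Psmb5, Psmd9 and Psmg3.

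Fold changes of core particle genes were of like size in the alpha and the beta ring. All 7 alpha ring genes had positive log2 fold changes, from 0.085 for Psma2 to 0.16 for Psma4, with a median of 0.12, and 2 of the 7 (Psma4 and Psma5) were higher at the unadjusted threshold. In the beta ring 6 of 7 were positive, from -0.011 for Psmb5 to 0.19 for Psmb7, with a median of 0.13, and 4 (Psmb2, Psmb3, Psmb6 and Psmb7) were higher at that threshold. Together the 14 core genes summed to 1288 ± 41.8 CPM after PBS (lowest 1226, median 1297, highest 1332) and to 1405 ± 78.7 CPM after B. thetaiotaomicron (lowest 1262, median 1410, highest 1480). In 6 of 7 B. thetaiotaomicron samples the sum was above every PBS sample, and sample 5 was the exception.

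Among the catalytic genes, Psmb5 differed from Psmb6 and Psmb7 in the size of its fold change, though the difference between them was not tested. Psmb6, which encodes the caspase-like subunit, was at 73.9, 75.9 and 81.6 CPM in PBS samples (lowest, median and highest) and at 80.8, 88.1 and 96.0 CPM in B. thetaiotaomicron samples. All B. thetaiotaomicron samples lay above the PBS median and 5 of 7 above the PBS maximum. The log2 fold change was 0.19 ± 0.053 (SE), with an adjusted p in edgeR of 0.125 and in DESeq2 of 0.0358. Psmb7, the trypsin-like subunit, was at 47.7, 51.7 and 61.0 CPM in PBS samples and at 51.9, 61.4 and 70.5 CPM in B. thetaiotaomicron samples. All 7 B. thetaiotaomicron samples were again above the PBS median, 4 of them above the PBS maximum, and the log2 fold change was 0.19 ± 0.069 with an edgeR adjusted p of 0.195. Psmb5, the chymotrypsin-like subunit, was at 20.6, 22.7 and 25.9 CPM in PBS samples and at 18.9, 23.4 and 25.6 CPM in B. thetaiotaomicron samples. None of its B. thetaiotaomicron values exceeded the PBS maximum, and its log2 fold change was -0.011 ± 0.079 (edgeR adjusted p 0.967). Without the 4 libraries the Psmb5 value was 0.071. GENCODE lists processed pseudogenes named after Psmb5, Psmb6 and Psmb7, 4 in all, and the sources used here do not say how reads shared with them were counted.

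Psma4, an alpha ring gene, was at 87.0, 101.8 and 106.5 CPM in PBS samples and at 101, 113.6 and 119.8 CPM in B. thetaiotaomicron samples. PBS sample 3 was its lowest, and 5 of 7 B. thetaiotaomicron samples exceeded the PBS maximum, with a log2 fold change of 0.16 ± 0.053 and an edgeR adjusted p of 0.164. Psmb3, a beta ring gene without catalytic activity, was at 60.9, 66.7 and 70.6 CPM in PBS samples and at 63.8, 74.0 and 83.5 CPM in B. thetaiotaomicron samples. It too had 5 of 7 above the PBS maximum, and its log2 fold change was 0.16 ± 0.060 (edgeR adjusted p 0.218).

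All 17 regulatory particle genes had positive log2 fold changes, with a median of 0.096, and 6 were higher at the unadjusted threshold. The 6 ATPases, which unfold substrates, ranged from 0.077 for Psmc6 to 0.16 for Psmc5 with a median of 0.13, and Psmc2, Psmc3 and Psmc5 were higher at that threshold. Non-ATPase subunits ranged from 0.027 for Psmd6 to 0.18 for Psmd1 with a median of 0.085. Of these 11, Psmd1 and Psmd2, the large scaffold subunits of the base, and Psmd14, the deubiquitinase of the lid, were higher at the unadjusted threshold. The ubiquitin receptor Psmd4 was at 87.7 ± 3.04 CPM after PBS and at 90.3 ± 4.70 CPM after B. thetaiotaomicron, a log2 fold change of 0.043 ± 0.042. Summed over the particle, PBS samples held 1642 ± 90.2 CPM (lowest 1570, median 1585, highest 1803) and B. thetaiotaomicron samples 1770 ± 142 CPM (lowest 1581, median 1804, highest 1944). The groups overlapped more than for the core, with 4 of 7 B. thetaiotaomicron sums above every PBS sample.

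Psmd1 was at 97.0, 106 and 118.9 CPM in PBS samples and at 107.9, 120.4 and 137.8 CPM in B. thetaiotaomicron samples. All 7 of the latter lay above the PBS median and 4 above the PBS maximum, and the log2 fold change was 0.18 ± 0.068 (edgeR adjusted p 0.224). Psmc5 was at 71.8, 84.3 and 88.1 CPM in PBS samples and at 79.7, 91.9 and 103.7 CPM in B. thetaiotaomicron samples. Its low PBS value came from sample 4 alone, and its log2 fold change of 0.16 ± 0.063 (edgeR adjusted p 0.252) was 0.12 without that sample.

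Across samples the standard subunits moved largely together. In B. thetaiotaomicron samples 2, 4 and 7, all 31 subunits were above their PBS medians, and in samples 1 and 6 the numbers were 29 and 30. Samples 3 and 5 stood lower, with 19 and 13 of the 31. PBS samples ran from 3 of 31 in sample 7 and 4 in sample 3 to 25 in sample 1 and 27 in sample 2. PBS samples 1 and 2 thus resembled B. thetaiotaomicron samples more than they resembled PBS samples 3 and 7 in this count. A count against PBS medians cannot compare the spread of the groups. The summed CPM of the 31 subunits had an SD of 117 in PBS samples and of 211 in B. thetaiotaomicron samples.

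**Figure D3:**
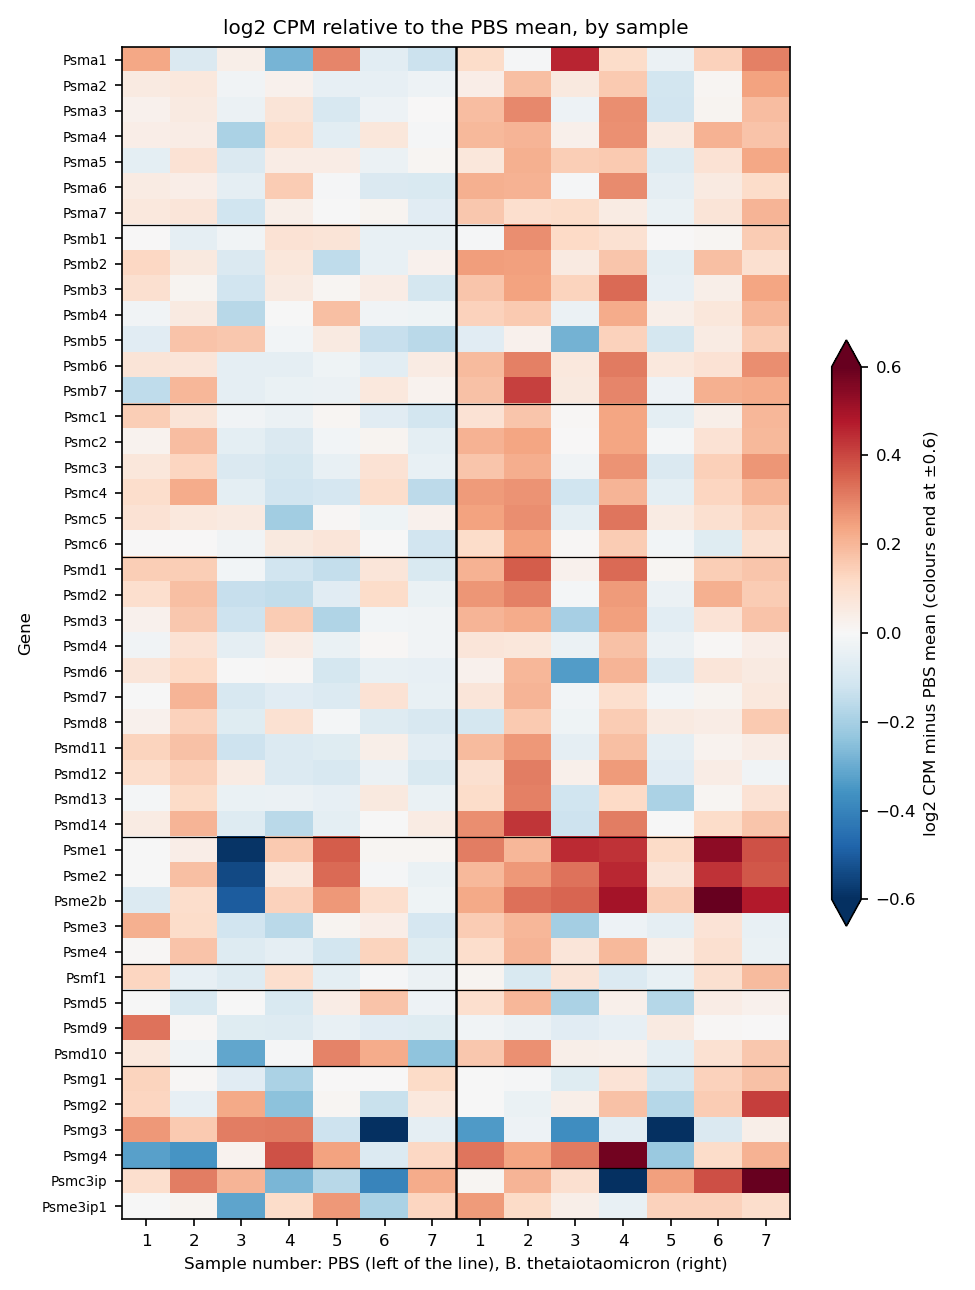
Log2 CPM of each tested gene in each sample minus the gene's PBS mean (red higher, blue lower, colours ending at ±0.6), with PBS samples left of the line, B. thetaiotaomicron samples right, and thin lines between classes. Columns for B. thetaiotaomicron samples 1, 2, 4 and 7 are red over most subunits, sample 5 is close to white, and Psme1, Psme2 and Psme2b stand out as dark blue in PBS sample 3.

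The largest class difference was that of the activators, and within it the fold changes of the interferon-inducible pair and of the retrogene of its second member exceeded those of Psme3 and Psme4. Differences in fold change from Psme4 were not tested, and within-sample ratios of the pair to Psme3, given further on, did not pass after adjustment. All 5 activator genes had positive log2 fold changes with a median of 0.29, and 3 (Psme1, Psme2 and Psme2b) were higher at the unadjusted threshold. Their sum was 526 ± 49.1 CPM after PBS (lowest 430.0, median 540.1, highest 573) and 597 ± 33.3 CPM after B. thetaiotaomicron (lowest 539, median 592, highest 640.5). In 6 of 7 B. thetaiotaomicron samples it exceeded every PBS sample, sample 5 again being the exception. Without PBS sample 3 the class median was 0.21, and without the 4 libraries it was 0.26.

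Psme1, the alpha subunit of the interferon-inducible activator, was at 74.0, 112 and 143 CPM in PBS samples and at 120, 145 and 161 CPM in B. thetaiotaomicron samples. PBS sample 3 was lowest and PBS sample 5 highest of its group, all 7 B. thetaiotaomicron samples lay above the PBS median, and 4 lay above the PBS maximum. The log2 fold change was 0.33 ± 0.11 with an edgeR adjusted p of 0.174. Psme2, the beta subunit, was at 65.1, 94.6 and 120.1 CPM in PBS samples and at 100.1, 118.6 and 129.7 CPM in B. thetaiotaomicron samples. The same PBS samples marked its extremes, and the log2 fold change was 0.29 ± 0.10 (edgeR adjusted p 0.200). Psme2b, which GENCODE tags as a retrogene, lies on chromosome 11 at chr11:48945354-48946190 on the minus strand. It was at 17.8, 27.0 and 30.1 CPM in PBS samples and at 27.8, 32.0 and 41.1 CPM in B. thetaiotaomicron samples, with 5 of 7 above the PBS maximum. Its log2 fold change of 0.39 ± 0.11 had an adjusted p of 0.124 in edgeR and of 0.0342 in DESeq2.

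Values of Psme2 and Psme2b are uncertain, because 789 of 794 aligned bases of their transcripts (99.4%) are identical and reads may have been divided between them. Psme2b also overlaps Gm12185 and 9930111J21Rik1 on its own strand, and Psme1 overlaps Emc9 on the opposite strand. In all, 13 of the 48 genes overlap another protein-coding gene in GENCODE M21, and the sources used here do not say whether counting used strand. Psme1 shares 61.8% of 434 aligned bases with Psme2.

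Psme3, which forms the nuclear activator, was at 104, 118 and 135 CPM in PBS samples and at 101, 114 and 134 CPM in B. thetaiotaomicron samples. The groups covered nearly the same range, and the log2 fold change was 0.015 ± 0.071 (edgeR adjusted p 0.943). Psme4, a large single-chain activator, was at 162, 168 and 196 CPM in PBS samples and at 170, 187 and 201 CPM in B. thetaiotaomicron samples. All 7 B. thetaiotaomicron samples were above its PBS median and 2 above its PBS maximum, with a log2 fold change of 0.094 ± 0.056 and an edgeR adjusted p of 0.451. Without the 4 libraries the log2 fold changes were 0.083 for Psme3 and 0.057 for Psme4, against 0.28 for Psme1 and 0.26 for Psme2.

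**Figure D4:**
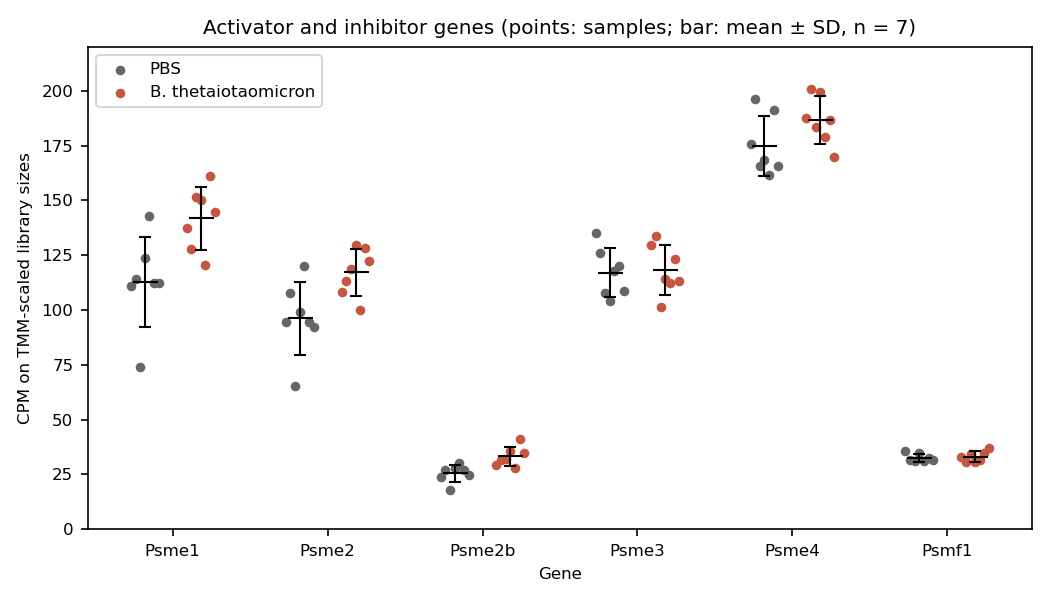
CPM on TMM-scaled library sizes of the 5 activator genes and the inhibitor Psmf1 in each sample (points; grey, PBS; red, B. thetaiotaomicron), with mean and SD over 7 samples a group (bars). PBS sample 3 is the lowest point of Psme1 (74.0), Psme2 (65.1) and Psme2b (17.8), and the groups of Psme3 and Psmf1 lie on top of each other.

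Psmf1, which encodes a proteasome inhibitor, was at 30.8, 31.7 and 35.5 CPM in PBS samples and at 30.5, 32.8 and 37.1 CPM in B. thetaiotaomicron samples. The groups overlapped over nearly their whole range, with a log2 fold change of 0.024 ± 0.057 (edgeR adjusted p 0.880). Assembly chaperones did not share a direction and none passed the unadjusted threshold. Of the 3 chaperones of the base, Psmd5 and Psmd10 were positive and Psmd9 negative, with a median log2 fold change of 0.0096, which was -0.016 without B. thetaiotaomicron sample 2 and 0.053 without the 4 libraries. Of the 4 chaperones of core assembly, Psmg1, Psmg2 and Psmg4 were positive, up to 0.21 for Psmg4, and Psmg3 was negative. Psmg3, at 1.89 ± 0.455 CPM after PBS and 1.52 ± 0.416 CPM after B. thetaiotaomicron, had a log2 fold change of -0.305 ± 0.228 (edgeR adjusted p 0.561). Psmd9 was at 23.0 ± 2.56 CPM after PBS and 22.7 ± 0.658 CPM after B. thetaiotaomicron, a log2 fold change of -0.021 ± 0.066 (edgeR adjusted p 0.914). The meiotic recombination gene Psmc3ip and the Psme3 partner gene Psme3ip1 had values of 0.14 ± 0.198 and 0.099 ± 0.079.

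The balance of interferon-inducible against other genes of like role was compared within each sample, where library scaling has no part. For the chymotrypsin-like position, the log2 ratio of Psmb8 to Psmb5 was -0.49 ± 0.55 after PBS and 0.25 ± 0.37 after B. thetaiotaomicron (SD, n = 7). The groups differed by 0.745 (exact permutation over samples, two-sided, p = 0.00758; adjusted over the 5 ratios by Benjamini-Hochberg, p = 0.0379), with 6 of 7 B. thetaiotaomicron samples above the PBS median. PBS sample 3 was lowest at -1.58, and without it the difference was 0.56 with an adjusted p of 0.0816 in the same exact test. Leaving out any of 7 other samples (PBS 1 or 2, B. thetaiotaomicron 1, 3, 4, 6 or 7) also took the adjusted p above 0.05, as did leaving out the 4 libraries together (0.59, adjusted p 0.119). For the caspase-like position, Psmb9 to Psmb6 was -0.94 ± 0.53 after PBS and -0.43 ± 0.48 after B. thetaiotaomicron, a difference of 0.51 (exact permutation p = 0.0833, adjusted 0.104). For the trypsin-like position, Psmb10 to Psmb7 was 1.28 ± 0.32 and 1.45 ± 0.13, a difference of 0.16 (exact permutation p = 0.24, adjusted 0.24). Ratios of CPM take no account of gene length, so only their differences between groups are comparable.

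Against the nuclear activator, the log2 ratio of Psme1 to Psme3 was -0.069 ± 0.29 after PBS and 0.26 ± 0.23 after B. thetaiotaomicron, and all 7 B. thetaiotaomicron samples lay above the PBS median. The groups differed by 0.33 (exact permutation p = 0.0361, adjusted 0.069). Psme2 to Psme3 was -0.30 ± 0.26 and -0.012 ± 0.20, with 5 of 7 above the PBS median, a difference of 0.29 (exact permutation p = 0.0414, adjusted 0.069). Single libraries moved both differences in either direction. Without PBS sample 3 they were 0.25 and 0.22, and without PBS sample 5, the highest PBS sample for both subunits, 0.39 and 0.34 (adjusted p 0.0255 for both, exact test). Without the 4 libraries set apart by the first component they were 0.19 and 0.17, with an adjusted p of 0.22 for both in the exact test. In that setting Psmb9 to Psmb6 differed by 0.32 and Psmb10 to Psmb7 by 0.081, also under the values from all samples. PBS sample 3 was the lowest sample in all 5 ratios, and the groups overlapped in each. The smallest p this design allows is 0.000583.

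**Figure D5:**
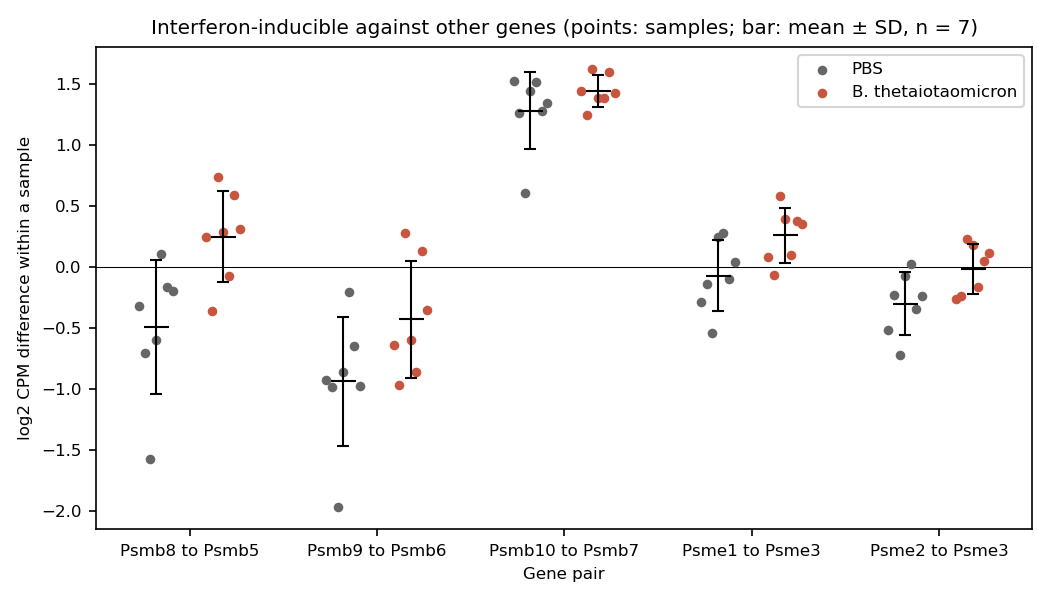
Log2 CPM difference within a sample between an interferon-inducible gene and a gene of like role, for 5 pairs (points are samples; grey, PBS; red, B. thetaiotaomicron; bars are mean and SD, n = 7). For Psmb8 to Psmb5 the means are -0.49 and 0.25, and the lowest PBS point of every pair belongs to sample 3.

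Psmb8, Psmb9 and Psmb10, which the rule left out, were themselves at 17.02 ± 5.14, 42.5 ± 13.7 and 132 ± 24.3 CPM after PBS. After B. thetaiotaomicron they were at 27.9 ± 6.55, 67.9 ± 20.4 and 166 ± 15.3 CPM, with log2 fold changes of 0.71 ± 0.20, 0.68 ± 0.24 and 0.33 ± 0.12. None passed in edgeR, with adjusted p of 0.128, 0.195 and 0.191, and all 3 were higher at the unadjusted threshold. The fold change of Psme1 was thus close to that of Psmb10, and both were smaller than those of Psmb8 and Psmb9, differences that were not tested.

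Like the activator genes, markers of interferon response and of myeloid cells had positive log2 fold changes. All 20 tested genes of a list of 22 interferon-induced genes had positive log2 fold changes with a median of 0.80, and their summed level was 521 to 1975 CPM in PBS samples, lowest in sample 3, and 1813 to 3490 CPM in B. thetaiotaomicron samples, lowest in sample 5. One of them passed at an adjusted p of 0.05 in edgeR and 18 at the unadjusted threshold. All 8 macrophage and dendritic cell markers were positive with a median of 0.37, 3 passed at the adjusted threshold, and their sums did not overlap, at 549.7 to 739 CPM against 748 to 971 CPM. Of 6 epithelial markers 5 were positive with a median of 0.15, none passed at the adjusted threshold, and their sums of 8362 to 14145 CPM and 9209 to 13544 CPM overlapped. Epcam, Krt8 and Vil1 of this list were higher at the unadjusted threshold, by 0.15 ± 0.053, 0.14 ± 0.064 and 0.21 ± 0.068 on the log2 scale. The others did not pass it, with 0.033 ± 0.080 for Cdh1, 0.49 ± 0.27 for Krt20 and -0.57 ± 0.68 for Car1. Car1 ran from 452 to 6214 CPM in PBS samples and so weighed on the sums. Epcam alone of this list had groups that did not overlap, at 1418 to 1750 CPM against 1769 to 1932 CPM. That held for 0.206% of all genes in the higher direction. The part of these markers in the proteasome values was not tested. Medians were 0.0077 for 3 goblet cell markers, -0.080 for 5 smooth muscle markers, -0.094 for 4 fibroblast markers, 0.33 for 3 T cell markers, -0.033 for 3 B and plasma cell markers and -1.70 for Hoxb13 and Hoxd13. None of these 20 genes passed at the adjusted threshold. At the unadjusted threshold, Jchain of the B and plasma cell list was higher, by 0.34 ± 0.10 on the log2 scale. Tff3 of the goblet cell list (-0.41 ± 0.18) and Col1a1 of the fibroblast list (-0.20 ± 0.087) were lower at that threshold. No marker of any list except Hoxd13 was at 0 in a sample.

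Within groups, no relation between Psme1, Psme2 or Psmb5 and the interferon list passed after adjustment. Over the 7 PBS samples, Psme1 and the mean log2 CPM of the interferon list gave a Pearson r of 0.84 (exact permutation p = 0.0869) and a Spearman rho of 0.36 (exact p = 0.444). Psme2 gave 0.80 (exact p = 0.096) and 0 (exact p = 1). Leaving out PBS samples 3 and 6, farthest from the list's median, brought r to 0.18 for Psme1 and 0.057 for Psme2, and without PBS sample 3 alone r was -0.072 and -0.18. Over the 7 B. thetaiotaomicron samples, Psme1 gave r = 0.60 (exact p = 0.158) and rho = 0.64 (exact p = 0.139), and Psme2 gave r = 0.30 (exact p = 0.514) and rho = 0.14 (exact p = 0.783). Without samples 3 and 6 of that group r was 0.14 and -0.014, and without sample 5 alone it was -0.16 for Psme2. For Psme1 in that group, r stayed between 0.38 and 0.79 when any 1 sample was left out. Psmb5 gave r = -0.59 (exact p = 0.149) and rho = -0.61 (exact p = 0.167) in PBS samples, and r = -0.53 (exact p = 0.218) and rho = -0.32 (exact p = 0.498) in B. thetaiotaomicron samples. For Psmb5 the values without the farthest samples were -0.029 and -0.13, and without B. thetaiotaomicron sample 3 alone r was -0.022 in that group. Adjusted over the 6 relations, the exact p of r ranged from 0.236 to 0.514 and that of rho from 0.5 to 1.

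Other genes of the ubiquitin-proteasome pathway had fold changes in both directions. Of 25 tested genes of a list of 26, which encode further subunits, the core maturation factor, ubiquitin carriers and the transcription factors of proteasome genes, 17 had positive and 8 negative log2 fold changes with a median of 0.020. Over all genes tested, 46.2% were positive and the median was -0.013. None passed at an adjusted p of 0.05 in edgeR, and at the unadjusted threshold 2 were higher and 2 lower. Among the higher was the ubiquitin-activating enzyme Uba1, at 0.13 ± 0.057 (edgeR adjusted p 0.293). The lower were Ddi2, the protease that processes Nfe2l1, with -0.19 ± 0.062 (edgeR adjusted p 0.161), and the ubiquitin carrier Ubqln1, with -0.094 ± 0.043 (edgeR adjusted p 0.323). Nfe2l1, the transcription factor that restores proteasome gene expression when proteasome activity falls, was at 271 ± 30.5 CPM after PBS and 246 ± 16.0 CPM after B. thetaiotaomicron, -0.14 ± 0.070 on the log2 scale (edgeR adjusted p 0.374). Pomp, which matures the core, had 0.15 ± 0.070 (edgeR adjusted p 0.336), a value like that of the core genes.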

How the data were processed

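Colon RNA from 14 samples, 7 a group, was turned into mRNA libraries (SMARTER kit, per the labels' protocols). The authors deposited raw counts of reads for each gene, per the file headers. FPKM values, also deposited by the authors, equal counts over gene length and library total, within rounding. Aligner, counting program and use of strand: not given in the sources used here. The submitters' processing notes name GRCm38 and mm10. Positions were taken from GENCODE M21 (GRCm38) by gene identifier, since only 514 of 21794 shared identifiers start at the same position in the deposited table, and promoters from RefSeq.

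Counts were filtered (edgeR filterByExpr, minimum count 10, minimum total 15), TMM-scaled and tested across 14070 genes with edgeR 4.0.16 (quasi-likelihood, robust, group only; Benjamini-Hochberg, 0.05) in R 4.3.3. The biological coefficient of variation was 0.21. Levels were expressed as CPM after TMM scaling, log2 CPM has a prior count of 2, and FPKM served for levels between genes only. Ratios and correlations were tested by exact permutation (Python 3.11.15, with 3432 arrangements for ratios). Alternatives were DESeq2 1.42.0, limma-voom 3.58.1, other scalings and filters, a replicate block, a hindgut covariate, and samples left out. The fit was tested on simulated data, where 6 unchanged genes were called. Genes named with values by sample were the catalytic, germ-cell and thymic core genes, activators, the inhibitor, and up to 5 others in each direction with the smallest p. Members, lists and the left-out libraries were chosen with earlier results of these data known. The libraries of a group differed by more than sampling noise (smallest chi-square per degree of freedom 9.99), so none was counted as a duplicate. One pathway gene is not reported here.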

Additional observations from a re-analysis of the deposited data

Results flagged for a closer look

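A sample was noted where its gap to the nearest of the 7 values of its group divided by the group's range passed Dixon's 95% critical value. Of 58 groups of values checked, 5 held such a sample, and chance alone flags about 1 in 20. Psmc5 was at 71.8 CPM in PBS sample 4, where the next lowest PBS sample was at 81.6 CPM. Psmd9 was at 28.8 CPM in PBS sample 1, above the next PBS sample at 23.0 CPM. Psmg3 was at 0.667 CPM in B. thetaiotaomicron sample 5, below the next at 1.42 CPM. Psmb11 was at 0.176 CPM in PBS sample 7, which is 3 counts, and at 0 in the other samples. The log2 ratio of Psmb10 to Psmb7 was 0.61 in PBS sample 3, below the next at 1.27.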

How the results depend on the processing

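Fits were repeated under 25 alternatives, 14 of which left out 1 sample each. No proteasome gene passed at an adjusted p of 0.05 under any except DESeq2, which placed 2 higher; the cause was not tested. The number higher at the unadjusted threshold ran from 8 to 21 when leaving out 1 sample and from 12 to 18 otherwise, and none was lower under any. The class medians moved by less than their replicate spread, the SD of the class mean log2 CPM within groups, under all 25. That spread was 0.105 for the non-ATPases, 0.095 for the base chaperones and 0.18 for the core chaperones. It exceeded the medians of these classes, so it cannot show that they are stable. These medians ran from 0.055 to 0.12, from -0.016 to 0.053 with a change of sign, and from 0.016 to 0.13. The median of the tested proteasome genes ran from 0.097 to 0.13 and that of the activators from 0.21 to 0.35. The median of all genes tested ran from -0.014 to -0.0061 on the log2 scale over the scalings. Near 0, signs changed: leave-one-out ranges were -0.036 to 0.031 for Psmb5, -0.015 to 0.053 for Psme3, -0.0030 to 0.046 for Psmf1 and -0.034 to 0.039 for Psmd9, and without the 4 libraries Psmb5 was at 0.071, Psmd9 at 0.050, Psme3 at 0.083 and Psme4 at 0.057. Leaving out 1 sample moved the ratio differences over 0.56 to 0.85 for Psmb8 to Psmb5, 0.34 to 0.63 for Psmb9 to Psmb6, 0.049 to 0.20 for Psmb10 to Psmb7, 0.25 to 0.39 for Psme1 to Psme3 and 0.22 to 0.34 for Psme2 to Psme3. Without the 4 libraries these were 0.59 (no longer past the threshold, with fewer samples), 0.32, 0.081, 0.19 and 0.17. Correlations with the interferon list ran from -0.072 to 0.94 for Psme1 and -0.18 to 0.89 for Psme2 in PBS samples, from -0.16 to 0.60 for Psme2 and 0.38 to 0.79 for Psme1 in B. thetaiotaomicron samples, and for Psmb5 from -0.81 to -0.32 in PBS and -0.83 to -0.022 in B. thetaiotaomicron samples. Deviations of same-numbered samples from their group means correlated at -0.260 to 0.602, with only numbers 3 and 6 closest to their own number. These deviations also hold the differences along the first component, so they cannot show whether samples of the same number were paired. With the replicate block 0 genes passed at the adjusted threshold and 17 were higher at the unadjusted one, with a median of 0.10. The subunits had 267 counts or more per sample, with the fewest for Psmb5, at 267 to 431. The part of counting noise in its fold change was not tested. Depth did limit Psmg3, at 9 to 38 counts, Psma8 and Psmb11.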
